A study of Mus musculus with 288 samples.

Results

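Glycolysis splits glucose into pyruvate, and the genes described here encode that path and the switch at its end: the hexokinases, phosphoglucose isomerase, the phosphofructokinases and the PFKFB enzymes that set their activator, the aldolases, the enzymes from triose phosphate isomerase to pyruvate kinase, the lactate dehydrogenases, the subunits, kinases and phosphatases of the pyruvate dehydrogenase E1 complex, and the lactate transporters Slc16a1 and Slc16a3. The members were taken by name, 35 of the 35904 genes in the tables, and all 35 were present. The naming rule uses no measured value, but the set was chosen with earlier results of these data known.

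RNA-seq libraries were made from lung, liver, kidney, skeletal muscle, heart and cerebellum of wild-type male C57BL/6J mice, 8 weeks old, kept for 7 days in normoxia (21% O2) or in intermittent hypoxia (IH), in which inhaled oxygen cycled between 21% and 8% during the light phase. All mice were then kept in constant darkness in normoxia. Organs were collected on day 2 of it every 3 h, at 8 clock times from 1:30 to 22:30, with 3 replicates each. Clock time here means the hour in the label. The labels do not say whether it counts from midnight or from lights-on. Below, IH and under IH name the group exposed before, not the oxygen level at collection. This gave 24 libraries per tissue and treatment and 288 in all. The labels name no transgene, allele or drug in either group. The study asked how short IH alters the daily mean and the daily rhythm of transcripts in organs affected by obstructive sleep apnea, and the comparisons below follow that design.

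Cells that lack oxygen can still make ATP by glycolysis if pyruvate is turned into lactate, which returns NAD+ to the GAPDH step and leaves the cell through monocarboxylate transporters. The hypoxia-inducible factors (HIF) are known to raise many genes of this path, among them Ldha, Pgk1, Eno1, Pdk1, Pfkfb3 and Slc16a3. The PDH kinases turn pyruvate dehydrogenase off by phosphorylating its Pdha1 subunit. Most steps have several isoenzymes whose genes are used in different tissues, such as the muscle forms Pfkm, Pgam2 and Eno3, the neuronal enolase Eno2 and the liver pyruvate kinase Pklr.

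Some libraries stood apart from the others of their tissue. The IH liver library of replicate 2 at 13:30 went against its label: its 8 hepatocyte markers summed to 1734 TPM (transcript abundance per library, scaled for length and total) against an IH median of 62158, while its heart muscle markers summed to 6638 and its erythroid markers to 29992. The IH cerebellum library of replicate 3 at 1:30 had a cerebellar neuron marker sum of 474 against an IH median of 4101, and a heart muscle sum of 7520. The IH lung library of replicate 2 at 1:30 had the lowest lung epithelium sum, 35199 TPM, against a normoxic range of 136998 to 265277. In normoxic heart, the library of replicate 3 at 7:30 had the lowest mean correlation with the other heart libraries (0.826), a heart muscle sum of 11170 TPM against a normoxic median of 20257, and a lung epithelium sum of 1571 TPM against a median of 1.20. That of replicate 3 at 19:30 had a mean correlation of 0.875 and a lung epithelium sum of 376 TPM. The highest lung epithelium sums in heart came from other libraries, 2012 TPM in normoxia and 642 in IH (IH median 0.787). Leaving out the heart library of lowest correlation does not remove these. The number of genes above 0 also moved with treatment in lung, from a median of 22690.5 in normoxia to 24788.5 in IH, and in heart, from 24768.5 to 21492, where treatment carried 59.96% and 69.5% of its variance. The tables hold TPM and no counts, so the read depth of each library is unknown here.

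Promoters of the members were read from RefSeq (GRCm38.p6) for 34 of the 35, in 54 windows of 250 bases ending at an annotated start. The core of the hypoxia response element, ACGTG or GCGTG on either strand, lay in 39 of the 54 windows (72.2%), against 38.6% of the 32851 windows of all genes. By gene, 29 of 34 members held it, against 41.5% of all 27025 genes. The count by gene favours the members, which have more windows each (54 for 34 genes against 32851 for 27025). The base composition of the windows was not matched. The palindromic E-box CACGTG, which contains ACGTG and is the element bound by the clock proteins CLOCK and BMAL1 and by MYC, lay in 8 windows (14.8% against 6.02%), those of Ldha, Ldhd, Pdk2, Pdp2, Pfkfb2, Pfkfb3, Pfkm and Slc16a1. A match is a run of letters and not a measured binding site. The sequences below belong to members whose values the results turn on, and capitals mark each match to these motifs or their reverse complements. Pgk1 (chrX:106186850-106187099, plus strand) and Ldha (chr7:46845554-46845803, plus) are the textbook HIF targets of the set, Slc16a1 (chr3:104638414-104638663, plus) and Pfkfb3 (chr2:11502091-11502340, minus) had the largest daily amplitudes, Pfkfb2 (chr1:130715822-130716071, minus) was the clearest member higher in lung, and Eno2 (chr6:124769674-124769923, minus) had the largest rise in lung and no match in this window. Each is written 5′ to 3′ on the strand of its gene.
Pgk1: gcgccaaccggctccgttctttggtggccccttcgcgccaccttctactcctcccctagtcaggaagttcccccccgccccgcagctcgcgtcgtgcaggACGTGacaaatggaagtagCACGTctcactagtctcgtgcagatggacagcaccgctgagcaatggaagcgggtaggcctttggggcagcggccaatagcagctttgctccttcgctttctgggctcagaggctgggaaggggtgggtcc
Ldha: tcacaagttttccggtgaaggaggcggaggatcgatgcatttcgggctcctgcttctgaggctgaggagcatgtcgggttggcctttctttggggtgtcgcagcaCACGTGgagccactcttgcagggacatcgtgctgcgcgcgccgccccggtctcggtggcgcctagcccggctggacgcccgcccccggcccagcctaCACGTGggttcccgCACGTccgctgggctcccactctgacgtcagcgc
Slc16a1: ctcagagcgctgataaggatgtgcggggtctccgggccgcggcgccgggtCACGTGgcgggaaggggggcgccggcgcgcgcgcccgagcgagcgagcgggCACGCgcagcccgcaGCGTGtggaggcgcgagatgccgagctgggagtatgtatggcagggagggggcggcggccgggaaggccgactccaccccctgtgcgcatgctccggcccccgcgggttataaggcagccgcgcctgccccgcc
Pfkfb3: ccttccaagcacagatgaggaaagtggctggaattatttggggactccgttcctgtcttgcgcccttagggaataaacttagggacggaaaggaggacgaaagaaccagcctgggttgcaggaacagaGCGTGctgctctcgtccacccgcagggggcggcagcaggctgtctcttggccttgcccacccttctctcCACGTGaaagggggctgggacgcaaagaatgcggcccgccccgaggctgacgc
Pfkfb2: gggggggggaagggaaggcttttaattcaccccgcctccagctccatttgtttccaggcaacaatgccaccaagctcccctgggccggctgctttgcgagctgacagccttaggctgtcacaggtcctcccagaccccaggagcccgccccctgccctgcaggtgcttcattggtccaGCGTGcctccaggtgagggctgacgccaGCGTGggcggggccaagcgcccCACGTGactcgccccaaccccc
Eno2: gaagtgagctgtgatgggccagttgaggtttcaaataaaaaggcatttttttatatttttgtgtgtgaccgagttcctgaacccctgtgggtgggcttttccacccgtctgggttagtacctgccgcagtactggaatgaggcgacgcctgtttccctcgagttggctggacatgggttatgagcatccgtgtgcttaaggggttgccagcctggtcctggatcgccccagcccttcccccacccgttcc

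The 6 tissues used different isoenzymes at most steps that have more than 1, in normoxia. TPM is scaled to transcript length, so isoenzymes can be set side by side within a library, and their shares of a step are described here without a test. At the hexokinase step, Hk1 held 77.6% ± 3.6 of the summed TPM in lung, 97.1% ± 1.2 in kidney and 85.7% ± 5.8 in cerebellum (SD, n = 24 each), whereas the insulin-responsive Hk2 led in muscle with 83.8% ± 3.0 and in heart with 55.8% ± 6.7. Liver, whose main glucose-phosphorylating enzyme is glucokinase, had a hexokinase sum of only 2.66 TPM. At phosphofructokinase, Pfkm made up 96.9% of 1005 TPM in muscle and 81.1% of 213 TPM in heart, and Pfkl 62.2% of 20.1 TPM in liver. Lung had no clear leader there, with Pfkl at 42.1% ± 3.3 and Pfkp at 39.8% ± 3.7, and Pfkl was highest in 15 of 24 libraries.

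The same split by organ held further down the path. Phosphoglycerate mutase was Pgam2 in muscle (98.5%) and heart (92.2%) and Pgam1 in the other 4 tissues, between 67.6% in kidney and 99.1% in liver. Enolase was Eno3 in muscle (95.1% of 4175 TPM) and heart (85.7%), Eno1 elsewhere, and in cerebellum Eno2 added 34.6% to the 57.3% of Eno1. Aldolase was almost entirely Aldoa in muscle, where its 16106 TPM was the highest level of any step, while in cerebellum Aldoc (51.3%) and Aldoa (48.7%) were level. Pyruvate kinase was Pklr in liver (91.9%) and Pkm in the other tissues, and Pklr was also measured in kidney, at a mean of 14.8 TPM. Ldha, which favours lactate formation, made up 94.0% of lactate dehydrogenase in muscle and 82.6% in liver, whereas Ldhb, the form of oxidative tissues, led in heart (72.3%), cerebellum (83.0%) and kidney (55.3%). Lung used both, Ldha at 52.8% and Ldhb at 46.3%. Among Pdk1, Pdk2 and Pdk3, Pdk2 had the largest share in all 6 tissues, from 53.3% in lung to 93.4% in muscle. Pdk4, a further PDH kinase outside the set, is not in these shares and was at means of 61.4 TPM in muscle and 41.2 in heart. Of the lactate transporters in the set, Slc16a3 led in muscle (94.4% of 223 TPM) and Slc16a1 in the others, with lung the most mixed at 58.1% Slc16a1. These are shares of transcripts and give no direction of transport, and Slc16a7, outside the set, is not in them.

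**Figure D1:**
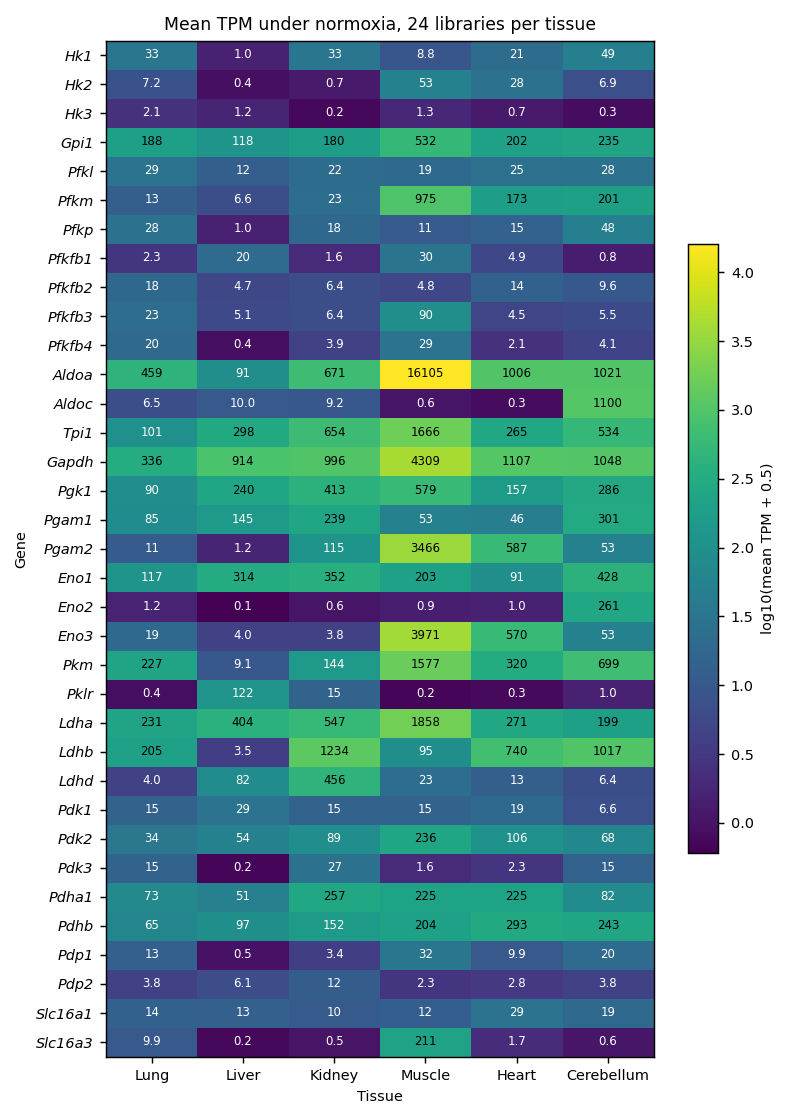
Mean TPM of each of the 35 members (rows, in the order of the pathway) in normoxia in the 6 tissues (columns; 24 libraries each), printed in each cell and coloured on the scale log10(mean TPM + 0.5). Muscle held the highest aldolase sum, 16106 TPM, and the muscle forms Pgam2 and Eno3 stand at 98.5% and 95.1% of their steps there.

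The main comparison set IH against normoxia in each tissue, over the 24 libraries of each treatment. Values were divided by a size factor per library (median of ratios) and compared on the log2(value + 0.5) scale with limma, among genes of mean TPM of at least 1. Folds on this scale understate the change of low genes. A gene was called if its adjusted p (Benjamini-Hochberg over all genes of the tissue) was at most 0.05 and its change at least 1.5-fold. The labels number the replicates but do not say that they came from separate cages or days, so p-values measure the spread between these libraries. In bulk tissue, fewer cells of a type and less RNA per cell cannot be told apart.

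Lung was the tissue in which the members moved most. Of the 34 members tested there (Pklr fell under the filter), 10 were called, 3 higher and 7 lower under IH, where of all 15426 genes tested 9.09% were called higher and 4.39% lower. The 7 lower members were aldolase C, GAPDH, phosphoglycerate kinase, the ubiquitous enolase Eno1, both main lactate dehydrogenase subunits and the lactate transporter Slc16a1. The 1.5-fold limit, 0.585 on the log2 scale, shaped this list. Hk1 (-0.580) and Aldoa (-0.583) just missed it, and Ldha (-0.589) just passed. Gpi1, an early step, was lower too (-0.44), so the lower changes were not confined to the late steps. The 3 higher members were Pfkfb2 and the tissue-restricted enolases Eno2 and Eno3. The share of members called higher was close to that of all genes. At an adjusted p of at most 0.05 alone, 31 of 34 members passed, 8 higher and 23 lower, against 70.4% of all genes. The median log2 change was -0.27 over the members and -0.08 over all genes.

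Among the lower members in lung, Slc16a1 (chr3:104638668-104658462), which carries lactate and pyruvate across the cell membrane, lay between 12.02 and 16.2 TPM in normoxia (median 13.6) and between 5.94 and 14.6 in IH (median 9.90). The ranges overlapped, and the change was -0.78 on the log2 scale (SE 0.086, adjusted p 7.97e-11, limma). Pgk1 (chrX:106187100-106203699), the first ATP-yielding enzyme of the path, ran from 81.4 to 96.9 TPM in normoxia (median 89.9) and from 41.8 to 93.3 in IH (median 76.6), a change of -0.66 (SE 0.077, adjusted p 2.95e-10). After scaling, its values did not overlap between treatments, though its TPM did. Ldhb (chr6:142490249-142507957) had the largest fall: from 163 to 343 TPM in normoxia (median 196) to 60.7 to 255 in IH (median 171), or -0.83 (SE 0.14, adjusted p 1.98e-06). The upper IH libraries lay within the normoxic range of Ldhb and the lowest ones well under it. Ldha (chr7:46841475-46855627) moved from 205 to 260 TPM (median 231) to 116 to 270 (median 204), or -0.59 (SE 0.080, adjusted p 1.25e-08).

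Eno1 (chr4:150236721-150248879) ran from 70.9 to 154 TPM in normoxia (median 114) and from 51.4 to 156 in IH (median 97.7), a change of -0.65 (SE 0.10, adjusted p 2.46e-07). Gapdh (chr6:125161715-125166467), often used as a reference gene, ran from 287 to 389 TPM (median 333) and from 113 to 446 (median 290), a change of -0.68 (SE 0.13, adjusted p 7.14e-06). In both genes the IH libraries reached above and below the whole normoxic range, so the spread grew as the centre fell. Aldoc (chr11:78322968-78327781), the brain-type aldolase, was low in lung, from 3.97 to 8.84 TPM (median 6.57) and from 2.53 to 10.48 (median 4.97), with a change of -0.66 (SE 0.12, adjusted p 2.59e-06). Each of the 7 was lower under IH at 8 of 8 clock times on the scaled values. Each clock-time mean averages all replicate numbers, and these differed for Gapdh and Eno1, as given below.

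Of the higher members in lung, Pfkfb2 (chr1:130689182-130729253), the isoform known from heart that makes the activator of phosphofructokinase, was the most cleanly separated. It ran from 9.51 to 23.4 TPM in normoxia (median 18.7) and from 24.5 to 53.0 in IH (median 35.7), so that the TPM ranges did not overlap. The change was 0.71 on the scaled log2 values (SE 0.059, adjusted p 5.28e-14), which did overlap. Eno2 (chr6:124760053-124769673), the neuronal enolase, rose from a range of 0.726 to 1.63 TPM (median 1.21) to 1.58 to 7.59 (median 3.44), or 1.02 (SE 0.088, adjusted p 1.42e-13), the largest rise in lung and at a low level. Eno3 (chr11:70657202-70662513), the muscle enolase, went from 13.8 to 37.1 TPM (median 18.5) to 20.0 to 70.3 (median 37.8), or 0.64 (SE 0.095, adjusted p 7.75e-08). All 3 were higher at 8 of 8 clock times. Just under the 1.5-fold limit lay Pfkfb4 (0.55; 13.3 to 25.3 TPM in normoxia, 25.5 to 64.3 in IH) and Pfkfb3 (0.51; 7.55 to 44.0 and 23.0 to 58.1), so that all 4 PFKFB genes had positive changes with adjusted p under the limit, Pfkfb1 at 0.38. On the falling side, Hk1 (-0.58), Aldoa (-0.58), Pgam1 (-0.56), Tpi1 (-0.49) and Pkm (-0.42) were also under the 1.5-fold limit with adjusted p values that passed. At the pyruvate switch, Pdk2 (-0.44), Pdk3 (-0.48), Pdha1 (-0.32) and Pdhb (-0.22) passed the adjusted p alone, while Pdk1 (0.06), Pfkm (0.02) and Ldhd (-0.00) did not.

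**Figure D2:**
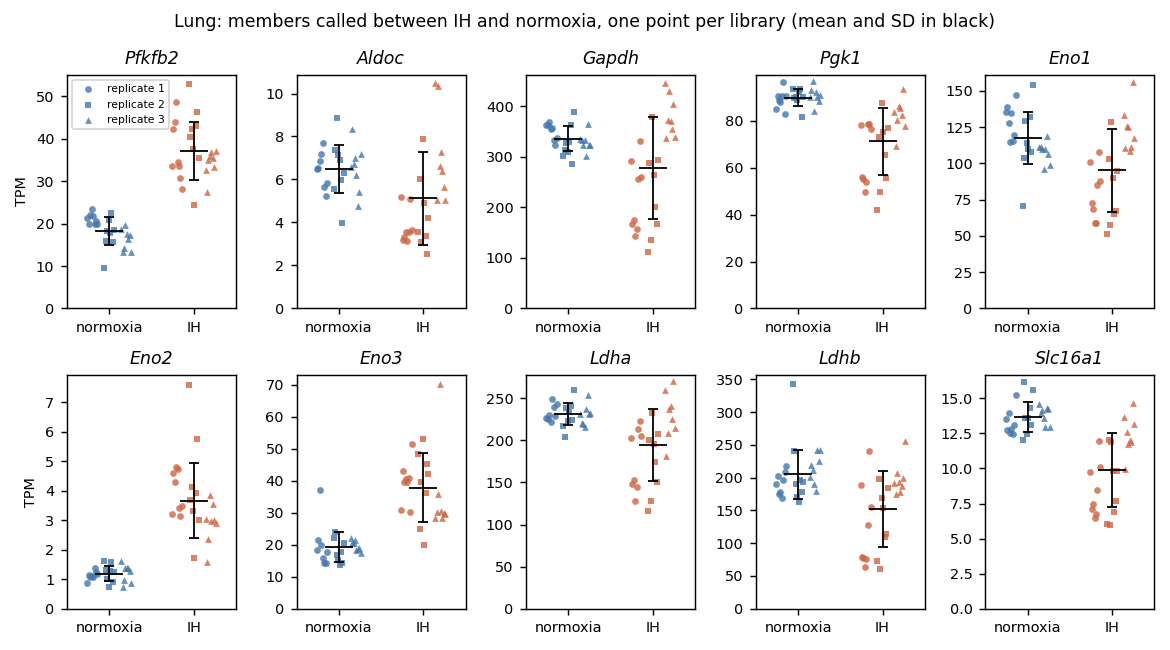
TPM of the 10 called members in each lung library (24 normoxia and 24 IH; marker shape gives the replicate number, black bars the mean and SD). Pfkfb2 separates fully, from at most 23.4 TPM in normoxia to at least 24.5 in IH, while Gapdh and Eno1 reach above and below their normoxic ranges in IH.

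The direction of the lung result depended on the scale. The median of all genes shifted by -0.08 with size factors and by 0.21 on TPM as deposited, and the split of called members went from 3 higher and 7 lower to 8 higher (Eno2, Eno3, Hk3, Pfkfb1, Pfkfb2, Pfkfb3, Pfkfb4 and Pgam2) and 0 lower. Of all genes, 42.1% had a positive change on the scaled values and 73.6% on TPM as deposited. The 7 lower members had negative changes on both scales, from -0.29 (Ldha) to -0.53 (Ldhb) as deposited. The number of genes above 0 moved with treatment in lung, and with it as a further term only Pfkfb2 (0.64) and Pfkfb3 were called among the members, Slc16a1 was at -0.27 and Pgk1 at -0.24, and Gapdh (0.18) and Eno1 (0.07) turned positive. The replicate numbers differed too: the change of Gapdh was -0.93, -1.01 and -0.12 within replicates 1, 2 and 3, that of Eno1 -0.93, -0.92 and -0.14, and that of Pfkfb2 0.56, 0.80 and 0.73. Leaving out replicate 1, 2 or 3 gave 6, 5 and 18 called members. The shares of all genes called as deposited, with the further term or without a replicate are not given here.

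Markers of other cell types moved in lung beside these genes. The lung epithelium list summed to a median of 171709 TPM in normoxia and 148725 in IH, the erythroid list to 63132 and 46657, the heart muscle list to 421 and 759 (8 of 8 genes with a higher mean in IH) and the skeletal muscle list to 34.95 and 56.5 (10 of 10). The highest skeletal muscle sum was 594 TPM in normoxia and 1018 in IH. Eno3 and Pgam2, whose highest levels were in muscle and heart, moved up beside the muscle lists, and their part in the result was not tested.

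In liver, 4 of 29 members were called, 1 higher and 3 lower, where of the 11334 genes tested 1.1% were called higher and 2.55% lower. Gpi1 (chr7:34201330-34230336), which interconverts glucose and fructose phosphates, fell from 83.9 to 161 TPM in normoxia (median 117) to 34.2 to 107 in IH (median 64.9), with a change of -0.67 (SE 0.10, adjusted p 7.07e-06). The ranges overlapped, but the IH median lay under the lowest normoxic library. Eno1 ran from 212 to 392 TPM (median 318) and from 61.9 to 350 (median 181), a change of -0.59 (SE 0.11, adjusted p 0.00012). Pklr (chr3:89136142-89146784), the liver pyruvate kinase, ran from 40.3 to 240 TPM (median 120) and from 2.11 to 245 (median 72.0), a change of -0.67 (SE 0.25, adjusted p 0.0475). Its IH libraries spanned the whole normoxic range and beyond.

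Ldhb was the higher member in liver, where it is the minor subunit: 1.90 to 7.73 TPM in normoxia (median 2.69) and 4.07 to 253 in IH (median 5.63), a change of 1.09 (SE 0.27, adjusted p 0.00299). The value of 253 TPM came from the library of replicate 2 at 13:30 that went against its label, and the lowest Pklr (2.11 TPM) and Eno1 (61.9 TPM) values came from it too. Without that library, 2 members stayed called, Gpi1 at -0.71 (adjusted p 2.32e-07) and Ldhb at 0.83 (6.63e-07), while Eno1 fell under the 1.5-fold limit at -0.56 and Pklr was at -0.50 with an adjusted p of 0.0517. Within replicate 3 the changes were -0.00 for Gpi1, 0.09 for Eno1, -0.06 for Pklr and 0.27 for Ldhb, against -1.20, -1.06, -1.01 and 1.02 within replicate 1, and without replicate 1 none of the 4 was called. At adjusted p alone 9 members passed, 1 higher and 8 lower, against 24.2% of all genes. They included Gapdh (-0.52), Aldoc (-0.45), Slc16a1 (-0.45), Pgam1 (-0.29) and Ldha (-0.21). Tpi1, Pgk1, Aldoa and Pfkl did not pass.

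The kidney marker list was also higher in IH liver, from a median sum of 3.61 TPM in normoxia to 83.1 in IH (lowest 37.9, 8 of 8 genes with a higher mean). Ldhb is a kidney-rich gene, at a mean of 1234 TPM there in normoxia. The heart muscle list rose from 12.3 to 34.0 TPM, the erythroid list from 2740 to 4247 and the hepatocyte list moved from 83305 to 62158. The part of these lists in the liver changes was not tested.

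**Figure D3:**
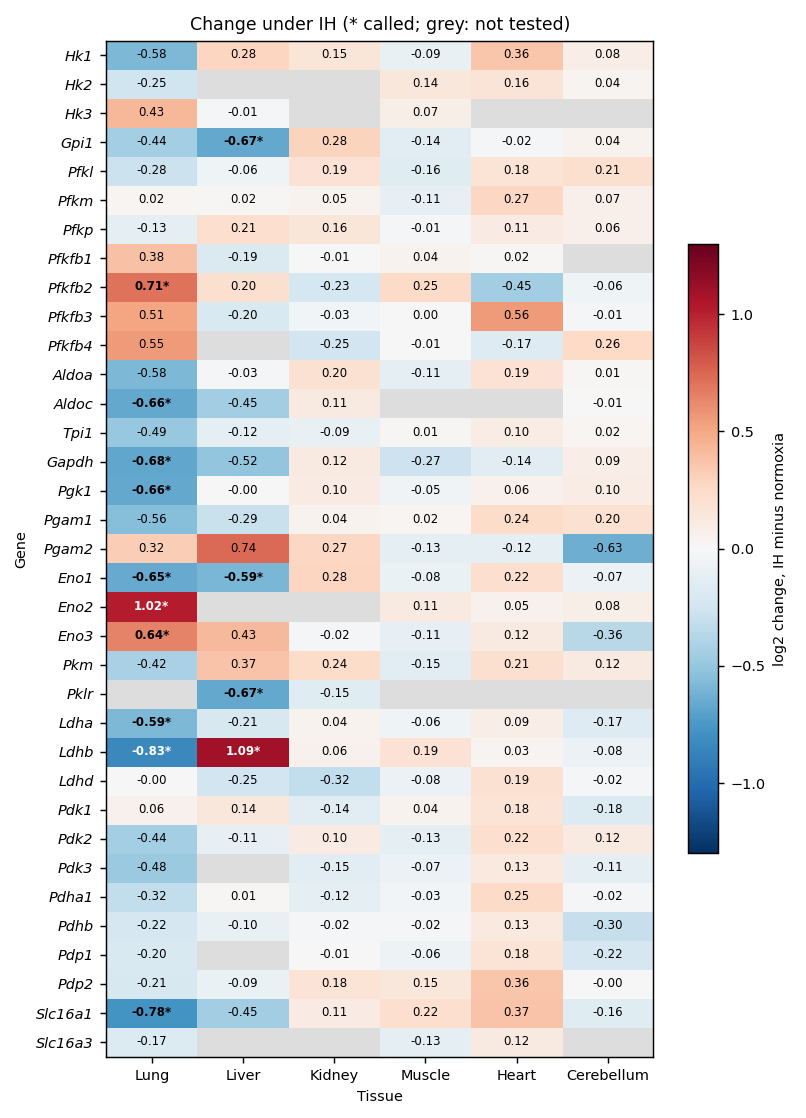
Log2 change under IH (IH minus normoxia, scaled values; red higher, blue lower, grey not tested) of each member (rows) in each of the 6 tissues (columns). The lung column is mostly blue with Eno2 (1.02), Pfkfb2 (0.71) and Eno3 (0.64) in red, liver has Ldhb at 1.09, and in heart 27 of 32 members are above 0.

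In kidney, limma called 0 of 31 members, and 0.783% of the 12902 genes tested were called, while 16 members had an unadjusted p of at most 0.05 and 11 passed the adjusted p (19.8% of all genes). Of these, 7 were higher, led by Gpi1 (0.28; median 176 TPM in normoxia and 221 in IH), Eno1 (0.28; 339 and 433) and Pgam2 (0.27), and 4 were lower, led by Ldhd (-0.32; 446 and 376), the mitochondrial D-lactate dehydrogenase whose highest level was in kidney. The ranges of all of them overlapped. All 5 erythroid markers had a higher mean in IH kidney as well, with a median sum of 4179 TPM in normoxia and 6551 in IH. On TPM as deposited 4 members passed the adjusted p, where 7.82% of all genes did.

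In muscle, limma called 0 of 33 members, with 0.374% of the 12824 genes called, 8 members at an unadjusted p of at most 0.05 and 4 at an adjusted p of at most 0.05 (10.4% of all genes). Pfkfb2 was higher (0.25; 3.20 to 6.09 TPM in normoxia and 4.37 to 7.98 in IH), and Gapdh (-0.27; median 4355 and 3806), Pkm (-0.15) and Gpi1 (-0.14) were lower. Pfkfb2 was higher and Gapdh and Gpi1 lower at 8 of 8 clock times, in small steps that left the ranges overlapping.

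On the scaled values, heart had small changes in the other direction to lung. Of 32 members 0 were called by limma (2.95% of the 12779 genes were), 18 had an unadjusted p of at most 0.05 and 15 passed the adjusted p, 13 higher and 2 lower, where 45.2% of all genes passed. The median change was 0.15 over the members and 0.04 over all genes, and 27 of 32 were above 0. Slc16a1 ran from 18.04 to 39.0 TPM in normoxia (median 28.4) and from 20.7 to 56.5 in IH (median 40.5), a change of 0.37 (SE 0.064). Hk1 ran from 11.05 to 31.5 TPM (median 20.7) and from 19.0 to 42.3 (median 29.9), a change of 0.36, and Pdp2, a phosphatase that turns pyruvate dehydrogenase back on, changed by 0.36 as well. Pfkm (0.27), Pdha1 (0.25), Pgam1 (0.24), Pdk2 (0.22) and Pkm (0.21) were among the other higher members. The share of members that passed was close to that of all genes. On TPM as deposited the median member change was 0.02 in lung and 0.27 in heart. There 18 of 34 members were above 0 in lung and 28 of 32 in heart.

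The 2 lower members in heart were Pfkfb2 (-0.45; 5.39 to 27.7 TPM in normoxia, median 12.5, and 6.58 to 15.8 in IH, median 10.1) and Pfkfb4 (-0.17). Pfkfb3 had the largest change, 0.56 (SE 0.17, adjusted p 0.00549), from a median of 3.27 TPM (1.83 to 15.1) to 6.52 (2.83 to 18.4). It was just under the 1.5-fold limit and was called with a pseudocount of 0.1, on TPM as deposited, without replicate 2 or replicate 3, and without the normoxic library that stood apart (replicate 3 at 7:30). On TPM as deposited, 24 heart members passed the adjusted p, where 43.9% of all genes did.

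In cerebellum, limma called 0 of 31 members (2.64% of the 14892 genes were called), 4 had an unadjusted p of at most 0.05 and 1 passed the adjusted p, where 15.0% of all genes did. This was Pdhb, the beta subunit of pyruvate dehydrogenase E1, at 155 to 309 TPM in normoxia (median 247) and 135 to 247 in IH (median 202), a change of -0.30 (SE 0.072, adjusted p 0.00363), lower at 8 of 8 clock times. Pgam2 had the widest spread, from 3.36 to 521 TPM in normoxia and from 4.99 to 241 in IH, and its change of -0.63 did not pass (adjusted p 0.36), with -1.45, -0.96 and 0.52 within the replicates 1 to 3. Skeletal muscle markers were high and variable in the cerebellum samples, with median sums of 3450 TPM in normoxia and 3706 in IH and a highest sum of 19625.

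Lung and heart were compared directly by an interaction of tissue and treatment in limma. The libraries of both tissues may come from the same mice, which the labels do not say. Of the 34 members, 31 differed at an adjusted p of at most 0.05, 25 with a lower change in lung and 6 with a higher one, where 65.5% of all 14853 genes differed, 44% lower and 21.5% higher in lung. The largest difference was in Slc16a1, at -0.78 in lung and 0.37 in heart, a difference of -1.18 (SE 0.11, adjusted p 1.21e-16). Hk1 differed by -0.99 (-0.58 and 0.36), Ldhb by -0.92 (-0.83 and 0.03) and Pgam1 by -0.85 (-0.56 and 0.24). The opposite held for Pfkfb2, which differed by 1.10 (0.71 in lung and -0.45 in heart, SE 0.13, adjusted p 1.8e-11), for Eno2 by 0.82 and for Pfkfb4 by 0.68. Pfkfb3 was the PFKFB gene higher in both tissues, and its difference of -0.12 did not pass. The number of genes above 0 moved with treatment in opposite directions in these tissues, and with it as a further term 7 members differed, and 12 of the 31 differences turned direction, Hk1 to 0.21 among them. Slc16a1 (-0.47), Pfkfb2 (1.51), Pfkfb4 (0.65), Hk3 (0.43) and Pgam2 (0.70) kept their direction and passed, while Ldhb (-0.09), Pgam1 (-0.32) and Eno2 (0.56) kept theirs and did not pass. The share of all genes that passed with this term is not given here, so these members have no background beside them.

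**Figure D4:**
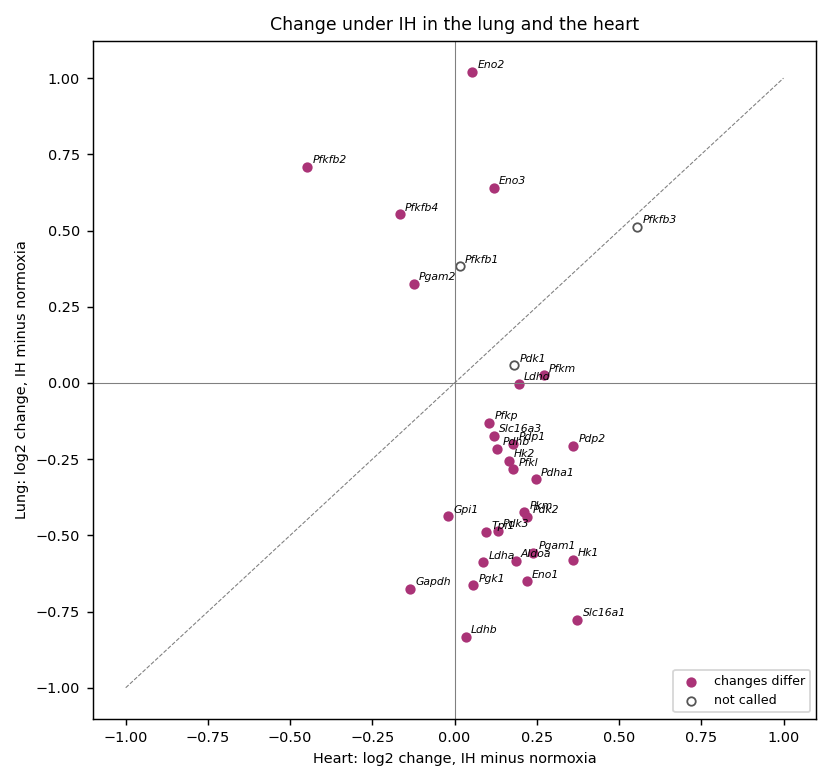
Log2 change under IH of each member in heart (horizontal axis) and in lung (vertical axis), for members tested in both; the dashed line marks equal changes. Slc16a1 lies at 0.37 in heart and -0.78 in lung, and Pfkfb2 at -0.45 and 0.71.

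Ratios of paired isoenzymes were compared within libraries, where the size factor cancels. Over 10 pairs and 6 tissues, 49 ratios could be formed, and 21 differed between treatments by a two-sided permutation test of treatment within clock times (100000 resamples, adjusted over the 49). Lung had 7 of its 9. Eno1 over Eno3 fell from a mean log2 ratio of 2.59 in normoxia to 1.31 in IH, a difference of -1.29 (permutation p 1e-05, the smallest these resamples can give, adjusted 7e-05), with -1.74, -1.56 and -0.57 within replicates 1, 2 and 3. Pgam1 over Pgam2 also fell, by 0.87 on the log2 scale, and Slc16a3 over Slc16a1 rose by 0.60 (both with the same smallest p), so that the transporter pair of lung turned from a Slc16a1 lead (-0.46) to a Slc16a3 lead (0.15). Pfkl over Pfkm differed by -0.30, Pdk1 over Pdk2 by 0.49, Hk2 over Hk1 by 0.31 and Ldha over Ldhb by 0.25 (adjusted permutation p 0.02). Within replicates 1, 2 and 3, Pdk1 over Pdk2 differed by 0.69, 0.80 and -0.02. Aldoa over Aldoc (0.11) and Pdha1 over Pdk2 (0.13) did not pass. Heart and skeletal muscle markers were higher in these IH lungs, as given above.

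In liver, 4 of 8 ratios differed: Ldha over Ldhb by -1.31, Pgam1 over Pgam2 by -1.04, Eno1 over Eno3 by -1.02 and Pkm over Pklr by 1.04. Without the library that went against its label they were -1.02, -0.70, -0.71 and 0.66, and all 4 still passed. Within replicate 3 alone, Pgam1 over Pgam2 (0.08), Eno1 over Eno3 (0.10) and Pkm over Pklr (-0.06) took the opposite sign, and Ldha over Ldhb was at -0.36. Kidney had 5, among them Pkm over Pklr at 0.39 and Pgam1 over Pgam2 at -0.23. Muscle had 3, Hk2 over Hk1 at 0.24, Pdk1 over Pdk2 at 0.17 and Slc16a3 over Slc16a1 at -0.35. Within muscle replicates 1, 2 and 3, Pdk1 over Pdk2 was at 0.06, 0.42 and 0.04. Slc16a3 over Slc16a1 was at -0.34, -0.70 and -0.00013 there, so replicate 3 had almost no change. Heart had 1, Slc16a3 over Slc16a1 at -0.28, and without the library that stood apart it had 3, with Hk2 over Hk1 (-0.23) and Pgam1 over Pgam2 (0.46) added. Cerebellum had 1, Pfkl over Pfkm at 0.15. The transporter ratio thus moved up in lung and down in muscle and heart, and the difference between tissues was not tested for ratios.

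Daily rhythm was tested per tissue and treatment with a 24-h cosine and sine in limma. Pfkfb3 (chr2:11471433-11554077), the PFKFB isoform with the strongest push towards glycolysis, was rhythmic in 7 of the 12 groups, more than any other member. In normoxic muscle it ran from 52.7 ± 12 TPM at 13:30 to 201 ± 72 at 4:30 (mean ± SD, n = 3), a fitted amplitude of 0.86 on the log2 scale and a peak-to-trough fold of 3.28 peaking at 4:55 (adjusted p 0.000399, limma). In IH muscle the peak was at 5:03 with a fold of 2.87. In lung the Pfkfb3 peak was later, at 9:59 in normoxia (fold 2.11, 15.9 ± 3.5 TPM at 19:30 and 37.8 ± 7.0 at 10:30) and at 8:42 in IH (fold 1.98). Liver gave the largest swing, 5.22-fold with a peak at 12:02 in normoxia (adjusted p 0.000111) and 3.58-fold at 10:31 in IH (adjusted p 0.0302). In normoxic kidney it peaked at 6:52 with a fold of 1.43, and in IH kidney its adjusted p was 0.0571.

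Slc16a1 was rhythmic in kidney in both treatments, from 5.03 ± 0.90 TPM at 10:30 to 16.0 ± 0.43 at 22:30 in normoxia (mean ± SD, n = 3) and from 4.86 ± 1.6 at 7:30 to 21.5 ± 3.5 at 22:30 in IH. The fitted folds were 2.90 (peak 22:01, adjusted p 5.86e-06, limma) and 4.12 (peak 21:59, adjusted p 6.03e-11), so the peak times lay minutes apart. In normoxic liver Slc16a1 peaked at 22:08 with a fold of 1.66, and in IH muscle at 20:40 with a fold of 1.62. Pfkfb1, the liver isoform, peaked at 17:36 in normoxic liver with a fold of 2.34 (13.3 ± 2.2 TPM at 7:30 and 32.3 ± 6.9 at 16:30), and was also rhythmic in muscle in both treatments and in IH heart. Pfkp peaked at close to the same hour in lung (23:58 in normoxia and 23:33 in IH) and in normoxic muscle (23:51), with folds of 1.24 to 1.34.

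Smaller rhythms were seen at the pyruvate switch. Pdk1, a PDH kinase, peaked in kidney at 11:53 in normoxia and 11:47 in IH (folds 1.32 and 1.36, adjusted p 0.00187 and 0.0143, limma), and in IH lung at 8:27 (log2 amplitude 0.19). Pdk2 peaked earlier in normoxic kidney, at 6:34 (fold 1.42). Pdhb peaked in liver at 13:39 in normoxia and 12:45 in IH (folds 1.42 and 1.70), from 83.4 ± 16 TPM at 1:30 to 125 ± 5.0 at 13:30 in normoxia. The phosphatase gene Pdp1 peaked in muscle at 9:30 in normoxia and 7:56 in IH (folds 1.41 and 1.78), and Pdp2 at 8:27 in normoxic muscle (fold 1.53). Among the other enzymes, Aldoa (peak 10:28, fold 1.51) and Eno3 (18:37, fold 1.40) were rhythmic in normoxic liver, Aldoc (7:09, fold 1.39) and Eno3 (4:49, fold 1.45) in normoxic lung, and Pklr (5:33, fold 1.35) in normoxic kidney.

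By tissue, the count of rhythmic members was 4 of 34 in normoxic lung (9.15% of all genes were rhythmic) and 3 in IH lung (4.65%), 6 of 29 in normoxic liver (17.7%) and 2 in IH liver (2.63%), 5 of 31 in normoxic kidney (21%) and 2 in IH kidney (5.74%), and 7 of 33 in muscle in each treatment (6.38% in normoxia and 8.83% in IH). In muscle 6 members were called in both treatments: Hk2, Pdp1, Pfkfb1, Pfkfb3, Pfkfb4 and Pfkp. Hk2 peaked there at 12:31 and 13:21 and Pfkfb4 at 12:51 and 13:04 in normoxia and IH. In heart 0 members were rhythmic in normoxia (0.626% of all genes; 3 at an unadjusted p of at most 0.05 and 0 by a rank test of rhythm) and 2 in IH (4.17%). In cerebellum 0 were rhythmic in either treatment (0% and 0.0134% of all genes), with 8 in normoxia and 1 in IH at an unadjusted p of at most 0.05 and 0 by the rank test in both. With the replicate number as a block, 2 were rhythmic in normoxic cerebellum (Pdk1 and Slc16a1), 7 in normoxic lung and 10 in normoxic liver. The shares of all genes above belong to the fit without the block, and those with it are not given here.

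A member rhythmic in 1 treatment and not in the other was not shown to differ. The difference of rhythm between treatments, tested as an interaction in limma, passed for 0 members in each of the 6 tissues and for 0% of all genes in each. At an unadjusted p of at most 0.05, 1 member differed in kidney (Pfkfb4) and 2 in muscle (Ldhd and Pdp1), and 0 in the other 4 tissues. The replicates per clock time number 3, which limits what such a test can show.

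**Figure D5:**
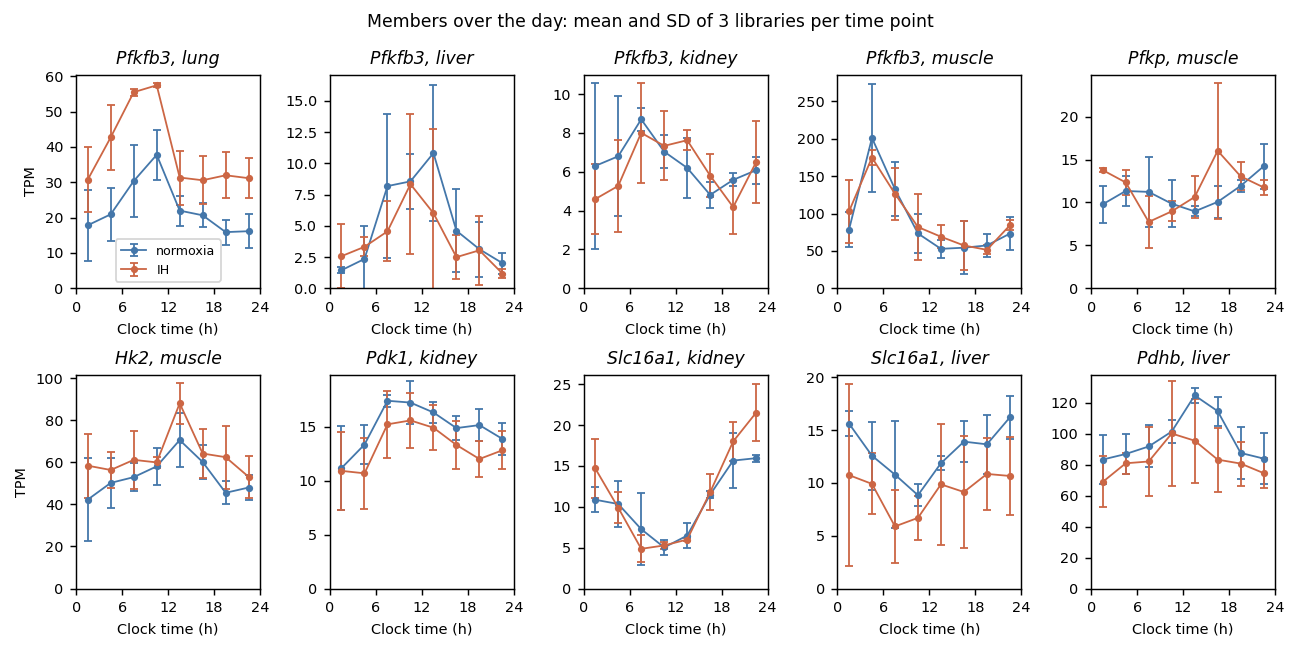
TPM of rhythmic members in the tissues named over each panel against clock time (points and bars: mean and SD of 3 replicates; normoxia and IH in separate colours). Pfkfb3 in muscle is highest at 4:30, at 201 TPM in normoxia, and Slc16a1 in kidney is highest at 22:30 in both treatments.

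Genes near the module were compared by list, beside the shares of all genes called. In lung 9.09% of all genes were called higher and 4.39% lower, and in liver 1.1% and 2.55%. In either direction, 2.95% were called in heart, 0.783% in kidney, 0.374% in muscle and 2.64% in cerebellum. Of 19 further genes of glycolysis and pyruvate use, 16 were tested in lung and 1 was called, Bpgm, which makes the regulator of red cell oxygen release (-0.75, adjusted p 9.55e-07, limma), with a median change of -0.20 against -0.27 for the members and -0.08 for all genes. In heart 2 of 16 were called, both higher: pyruvate carboxylase Pcx (0.64) and Pdpr, the regulatory subunit of the PDH phosphatase (0.72), with a median of 0.21. In liver, kidney, muscle and cerebellum limma called 0 of this list. Among 12 HIF targets outside glycolysis, lung had 1 higher, the carbonic anhydrase Car9 (0.60), and 1 lower, the glucose transporter Slc2a1 (-0.69), with a median of -0.24, and heart had 1 lower, Vegfa (-0.73). The 17 members known as HIF targets had a median of -0.49 in lung, where 5 were called lower and 0 higher (4.39% and 9.09% of all genes), -0.16 in liver, 0.11 in kidney, -0.07 in muscle, 0.17 in heart and 0.04 in cerebellum. On TPM as deposited, and with the number of genes above 0 as a further term, 0 members were called lower in lung.

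Near-identical copies can share reads with some members. Pgk1-rs7, a copy of Pgk1, was at a mean of 43.7 TPM in normoxic kidney and 6.86 in IH kidney, beside 413 and 430 for Pgk1, and Pgam1-ps2 at 21.1 and 8.62 beside 239 in both treatments for Pgam1. The kidney values of these members are uncertain to that extent. The annotation lists Aldoa under a pair of adjacent gene models on chromosome 7, and the tables give 1 value by symbol.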

How the data were processed

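The authors made the deposited values with kallisto, per the submitters' processing notes, which also name bcl2fastq, FastQC 0.11.3, mm10 and DESeq2: TPM by gene (abundance scaled for transcript length and library total), in 12 tables, 1 per tissue and treatment. TPM sums ran from 989211 to 999188 per library, no 2 libraries were identical, and read depth is not in such values. Groups, hours (here called clock times) and replicate numbers came from the labels.

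Here TPM were divided by median-of-ratios size factors per tissue, and log2(value + 0.5) was fitted, for genes averaging 1 TPM or more, in limma 3.58.1 (R 4.3.3, trend), with adjustment over all genes. Rhythm used a 24-h cosine and sine, isoenzyme ratios a permutation test (numpy 2.4.6) within clock times. The fits were tested on simulated data with known changes. All 35 members could be named, with values for those called, leading a step or rhythmic, and other genes only from the stated lists. The members and lists were chosen with earlier results of these data known. Alternatives were the pseudocount, the filter, TPM as deposited, further terms, a replicate block, a rank test of rhythm and leaving out libraries. Leaving out the library of lowest correlation for rhythm, ratios and lung against heart was chosen after seeing the data. Positions are from GENCODE vM21 (GRCm38), promoters from RefSeq.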

Additional observations from a re-analysis of the deposited data

Results flagged for a closer look

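The change under IH differed between lung and heart in 31 members (interaction in limma, adjusted p of at most 0.05), and all 31 are given here as the log2 change in lung minus that in heart. The background is wide: 65.5% of all genes tested differed. The difference was past 0.7 on the low side in Slc16a1 (-1.18), Hk1 (-0.99), Aldoc (-0.96), Eno1 (-0.92), Ldhb (-0.92), Pgam1 (-0.85), Aldoa (-0.82), Pgk1 (-0.77), Ldha (-0.73) and Pdk2 (-0.71). It was smaller in Pkm (-0.69), Pdk3 (-0.67), Tpi1 (-0.64), Pdp2 (-0.62), Pdha1 (-0.62), Gapdh (-0.59), Pfkl (-0.51), Gpi1 (-0.47), Hk2 (-0.46), Pdp1 (-0.43), Pdhb (-0.40), Slc16a3 (-0.35), Pfkm (-0.30), Pfkp (-0.29) and Ldhd (-0.25). The change was higher in lung in Pfkfb2 (1.10), Eno2 (0.82), Pfkfb4 (0.68), Eno3 (0.46), Hk3 (0.42) and Pgam2 (0.39). Aldoc and Hk3 were under the filter in heart alone and entered through the joint filter, so their heart levels are low. The number of genes above 0 rose in IH lung and fell in IH heart, and with that number as a further term 12 of these differences took the opposite sign: those of Aldoa, Gapdh, Hk1, Hk2, Ldhd, Pdha1, Pdk2, Pdp1, Pfkl, Pfkm, Pkm and Tpi1. In the same fit 7 of the 31 passed, of which Pdk2 and Pfkm had turned. The share of all genes that passed this fit is not given here.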

How the results depend on the processing

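The changes called in lung and liver (14 in all) kept their direction and their call with pseudocounts of 0.1 and 1 and with a replicate block. Pklr in liver lost its call with the clock time as a further term and with no filter on low values. With the number of genes above 0 as a further term, 2 members were called in lung and 1 in heart, and 7 differed between lung and heart. Shares of all genes are not given for the counts in this section. The same term reversed the lung change of Eno1 (0.071) and Gapdh (0.18), and the difference of lung and heart for Aldoa (0.24), Gapdh (0.30), Hk1 (0.21), Hk2 (0.20), Ldhd (0.065), Pdha1 (0.078), Pdk2 (0.49), Pdp1 (0.12), Pfkl (0.18), Pfkm (0.52), Pkm (0.18) and Tpi1 (0.10), and the cause was not tested. Without the library of lowest correlation 2 members were called in liver and 1 in heart, and the ratios that passed were 3 in heart and 2 in cerebellum. With a pseudocount of 0.1, and on TPM as deposited, 1 member (Pfkfb3) was called in heart. On TPM as deposited the rhythmic members were 2 in normoxic lung, 0 in IH liver, 2 in normoxic and 1 in IH kidney, 3 in normoxic muscle and 0 in IH heart. A mean TPM of at least 5 left 0 in IH liver, and the rank test gave 4 in normoxic muscle and 1 in IH heart.

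Leaving out 1 replicate number at a time gave 5 to 18 called members in lung, 0 to 8 in liver, 0 to 1 in heart and in cerebellum and 0 in kidney and muscle. The rhythmic members ranged from 1 to 2 in normoxic and 0 to 1 in IH lung, 4 to 7 and 0 to 1 in liver, 2 to 4 and 1 to 2 in kidney, 1 to 3 and 1 to 5 in muscle, and stayed at 0 in IH heart. The members that differed between lung and heart numbered 27 to 32. The ratios that passed ranged from 4 to 8 in lung, 2 to 7 in liver, 2 to 6 in kidney, 0 to 3 in muscle, 1 to 3 in heart and 0 to 4 in cerebellum. These fits have fewer libraries.

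The labels give the groups the same replicate numbers. Same-numbered libraries did not deviate together in every pair (median correlation from -0.14 in lung to 0.22 in liver), with 16 of 24 pairs over 0.1 in liver, 12 of 24 in muscle and 5 to 8 of 24 elsewhere, so the number was not taken as a pairing by design. With the number as a replicate block, the rhythmic members were 7 in normoxic lung, 10 in normoxic liver and 2 in normoxic cerebellum, and the called changes were the same 10 in lung and 4 in liver. Depth is unknown from TPM, so members near the filter (Eno2 in lung, Ldhb in liver) have an unknown counting error.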
